A study of Mus musculus with 10 samples.

Results

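The PRDM genes described here are Prdm8, Prdm12, Prdm13 and Prdm16, 4 of the 56748 gene identifiers counted in each library. They were chosen by name as PRDM factors of neural development and matched by symbol, with the differences between genotypes in these libraries already known. The values that compare the genotypes are therefore given as a description, with no test. Read counts per gene came from 10 libraries of cortex tissue of mouse embryos at stage E12.5, 5 labelled Emx2 KO and 5 labelled WT. Emx2 encodes a homeodomain transcription factor of the dorsal telencephalon, and the comparison asks how the transcripts of that tissue differ when it is knocked out. The labels give neither the allele, the promoter of any Cre, the strain, the sex nor whether a library is 1 embryo or a pool, and they do not say that libraries came from separate animals. A p-value for another gene thus measures the scatter among these libraries, part of which may be technical.

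PRDM proteins combine a PR domain, related to the SET domain of histone methyltransferases, with zinc fingers that in most members bind DNA. Most act as repressors, either through their own catalytic activity or by recruiting chromatin enzymes, and several set cell identity in the developing nervous system. PRDM16 is known from radial glia, the neural stem cells of the cortex, and PRDM8 from postmitotic neurons, where it works with the bHLH repressor BHLHE22. PRDM12 is known from nociceptive sensory neurons and ventral spinal progenitors, and PRDM13 from the dorsal spinal cord, retina and hypothalamus, where it favours inhibitory neurons.

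The libraries held 9720840 to 35674113 counts, and 18163 genes had enough reads to be tested, all 4 PRDM genes among them. Prdm13 passed this filter only through the Emx2 KO libraries, where it was higher. The 5 large libraries, of over 20000000 counts, were Emx2 KO replicates 1, 2 and 4 and WT replicates 3 and 4. The other 5 were smaller. The sample titles end in 1 of 3 codes whose meaning is not given, and within each code the Emx2 KO libraries are of one size class and the WT libraries of the other. Emx2 itself stood at 94.6 to 146 CPM (counts scaled to the size of each library) in Emx2 KO libraries and at 175 to 208 CPM in WT libraries (log2 fold change -0.59 ± 0.11 SE, edgeR adjusted p = 0.00271), so its transcripts were lower but still abundant. A count summed over the gene does not show how the knockout was made. Markers of cortex were abundant in both genotypes, with the homeodomain gene Emx1 at 153 ± 15.7 CPM in Emx2 KO and 109 ± 6.0 CPM in WT libraries (SD, n = 5 each).

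Of the 4 PRDM genes, 3 were higher in Emx2 KO libraries at the threshold used across all genes (edgeR adjusted p under 0.05), 0 were lower and 1 did not pass. Over all genes tested 22.2% passed, 12.9% higher and 9.33% lower. The same 3 were also the genes whose Emx2 KO libraries all lay above the WT libraries. Among all genes tested 16.7% showed no overlap between genotypes, 9.63% higher in Emx2 KO and 7.06% lower. Because this contrast was known when the genes were chosen, these counts support nothing about the family.

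The stretch of 250 bases before the RefSeq transcription start of each gene is shown here, since the 3 genes that were higher and the 1 that was not can be set side by side at their promoters. The windows are from mouse build GRCm38.p6, each written 5′ to 3′ along the gene's strand. They lie at chr2:31639787-31640036 on the plus strand for Prdm12, chr4:21685964-21686213 on the minus strand for Prdm13, chr4:154636874-154637123 on the minus strand for Prdm16 and chr5:98180619-98180868 on the plus strand for Prdm8. Capitals mark TAAT or its reverse complement ATTA, the core that homeodomain proteins as a class recognise.
Prdm12: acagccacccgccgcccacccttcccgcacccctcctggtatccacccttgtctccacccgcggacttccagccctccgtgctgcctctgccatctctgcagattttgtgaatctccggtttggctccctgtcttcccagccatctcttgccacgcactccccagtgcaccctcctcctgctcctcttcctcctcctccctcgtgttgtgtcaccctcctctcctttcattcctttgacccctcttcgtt
Prdm13: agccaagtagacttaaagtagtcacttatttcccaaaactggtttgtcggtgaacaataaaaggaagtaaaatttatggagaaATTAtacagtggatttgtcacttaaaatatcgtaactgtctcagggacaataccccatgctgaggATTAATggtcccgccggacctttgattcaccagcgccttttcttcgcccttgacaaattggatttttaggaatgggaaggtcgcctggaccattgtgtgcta
Prdm16: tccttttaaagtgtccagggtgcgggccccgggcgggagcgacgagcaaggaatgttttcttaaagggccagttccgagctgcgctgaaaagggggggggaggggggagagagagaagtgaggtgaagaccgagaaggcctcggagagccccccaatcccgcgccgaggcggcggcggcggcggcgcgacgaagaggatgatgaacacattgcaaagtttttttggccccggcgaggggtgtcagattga
Prdm8: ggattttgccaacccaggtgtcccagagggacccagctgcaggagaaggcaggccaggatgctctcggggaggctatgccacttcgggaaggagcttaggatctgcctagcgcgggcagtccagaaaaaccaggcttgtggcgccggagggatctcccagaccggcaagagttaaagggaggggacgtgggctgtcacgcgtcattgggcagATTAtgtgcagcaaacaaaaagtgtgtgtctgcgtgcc

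The Prdm13 window differed from the other 3 in base composition. Its GC content was 41.6%, against 61.2% for Prdm12, 62.4% for Prdm16 and 59.6% for Prdm8, and the median over 32851 windows of annotated genes was 52.4%. Prdm16 had the most CG dinucleotides, 22, against 10 in Prdm12, 7 in Prdm13, 11 in Prdm8 and a median of 6. Counting both strands, TAAT matched 3 times in the Prdm13 window, 2 of these overlapping in one stretch of capitals. There was 1 match in the Prdm8 window and none in those of Prdm12 and Prdm16, while 54.9% of all windows held at least 1. The longer core TAATTA was in none of the 4 windows and in 4.84% of all. Among E-boxes, the short sites of bHLH proteins, CATATG (3.46% of all windows) and CATCTG with its reverse complement CAGATG (14.4%) were in none of the 4. CAGCTG (13.0%) matched once, in the Prdm8 window. A match describes letters and shows no binding, and its absence says only that these letters are not in the window.

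Prdm12 had the largest fold difference of the 4 genes with all libraries fitted. It was counted 628, 859, 507, 607 and 185 times in Emx2 KO replicates 1 to 5, against 50, 86, 249, 159 and 24 times in WT replicates 1 to 5. Scaled by library, that was 20.6, 31.9, 37.6, 24.8 and 12.8 CPM in Emx2 KO libraries, against 4.16, 6.25, 6.90, 4.72 and 2.44 CPM in WT libraries. The lowest Emx2 KO library, replicate 5, was still above the highest WT library, replicate 3. The fitted log2 fold change was 2.33 ± 0.32 (SE), a 5.03-fold higher level, which ranked 12 from the top among the 18163 genes tested. Prdm13 had the larger log2 fold change without Emx2 KO replicate 3 (2.34, against 2.16 for Prdm12), without WT replicate 1 (2.38, against 2.28) and in the large libraries (2.53, against 2.15). Within the 3 title codes the log2 ratio of mean CPM, Emx2 KO over WT, was 2.34 (241022, 2 libraries each), 2.12 (14922, 2 each) and 3.35 (31022, 1 each). In both genotypes the libraries spread alike in proportion, with a coefficient of variation of 37.8% in Emx2 KO and 36.0% in WT.

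**Figure D1:**
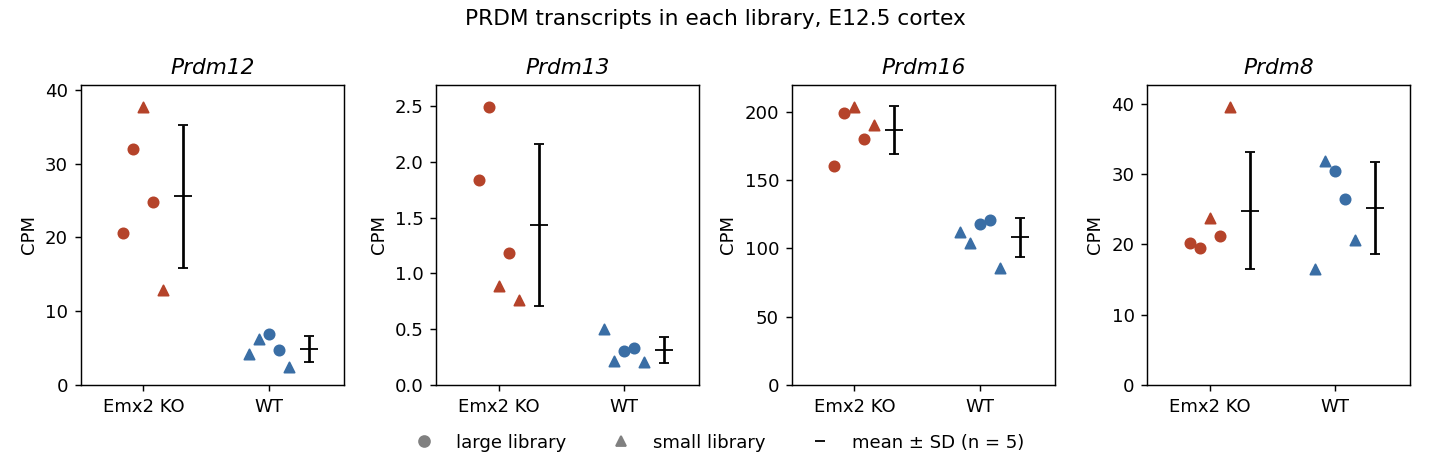
CPM of Prdm12, Prdm13, Prdm16 and Prdm8 in each library, Emx2 KO left and WT right, with circles for large and triangles for small libraries and a bar for the mean ± SD (n = 5). The Emx2 KO points of Prdm12, Prdm13 and Prdm16 all sit above the WT points, while those of Prdm8 overlap, with 1 Emx2 KO library at 39.5 CPM.

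Reads at the Prdm12 locus were not confined to the coding gene. Gm13425, annotated as antisense to Prdm12, shares 200 exon bases with it, which is 8.09% of the exon bases of Prdm12 and 3.71% of those of Gm13425, and the Prdm12 promoter window lies within Gm13425 but outside its exons. Gm13425 stood at 16.2, 27.2, 31.8, 21.7 and 16.3 CPM in Emx2 KO libraries, against 4.75, 5.81, 9.20, 7.75 and 3.46 CPM in WT libraries. It was 3.48-fold higher in Emx2 KO (log2 fold change 1.80 ± 0.27, edgeR adjusted p = 0.00104), again with no overlap between genotypes. Across the 10 libraries the deviations of Prdm12 and Gm13425 from their genotype means correlated with Pearson's r of 0.869 and Spearman's rho of 0.867, a description over libraries that share depth and scaling. The strand setting of the counting is not given, so reads in the shared bases cannot be assigned to one gene or the other.

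Prdm12 was described next to markers of the tissues in which it, or the neighbouring forebrain, is best known. Sensory neuron and neural crest markers were near the limit of detection in both genotypes. Of 11 listed, 6 could be tested, and 0 passed in edgeR (2 at an unadjusted p under 0.05). Their summed level was 8.27 to 16.7 CPM in Emx2 KO and 7.01 to 11.3 CPM in WT libraries. None of the 11 was at 0 in every library. DESeq2 called 1 of these 6 and limma-voom 2. In edgeR 2 genes of the list passed without Emx2 KO replicate 4, 2 in the large libraries alone and 2 without the filter, and 1 passed without Emx2 KO replicate 5, without WT replicate 5 and with either block.

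Markers of the subpallium, the ventral telencephalon that borders the cortex and produces inhibitory neurons, moved with Prdm12. Of 13 tested 7 were higher in Emx2 KO libraries, 0 lower and 6 did not pass, with a median log2 fold change of 1.62 against -0.01 over all genes. The count higher was 5 without Emx2 KO replicate 2 or 3 or WT replicate 1, 3 or 4. It was 9 without Emx2 KO replicate 5, 11 without WT replicate 2 and 0 in the small libraries alone. Among those that passed, Gsx2, a homeodomain factor of ventral progenitors, stood at 10.96 ± 4.57 CPM in Emx2 KO and 2.99 ± 1.16 CPM in WT (edgeR adjusted p = 0.00725), and Dlx5, a homeodomain factor of the inhibitory lineage, at 20.5 ± 7.6 CPM in Emx2 KO and 6.04 ± 3.38 CPM in WT (edgeR adjusted p = 0.0104). For both Gsx2 and Dlx5 the libraries of the genotypes overlapped. The summed level of the list ran from 179.9 to 714.7 CPM in Emx2 KO and from 92.1 to 304.6 CPM in WT libraries, and none of its 15 genes was at 0 throughout. Deviations of Prdm12 from its genotype means followed those of the sum over the tested markers with r = 0.769 (10 libraries), and 0.875 when size class was also removed. Within size class its r was also far from 0 with summed endothelial, mesenchymal and blood markers (-0.782) and genes linked to PRDM factors (-0.769). It was -0.835 with the sum of the 2 tested genes of the retinal list, Mitf and Otx1. Nearly all of that sum was Otx1, which cortex also expresses. The order of Prdm12 and the subpallial sum was not the same in every library. Emx2 KO replicate 5 had a subpallial sum of 179.9 CPM with Prdm12 at 12.8 CPM, whereas WT replicate 2 had a larger sum, 304.6 CPM, with Prdm12 at 6.25 CPM. The part of ventral tissue in the Prdm12 difference was not tested. In bulk tissue fewer cells of a type and less RNA per cell cannot be told apart.

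**Figure D2:**
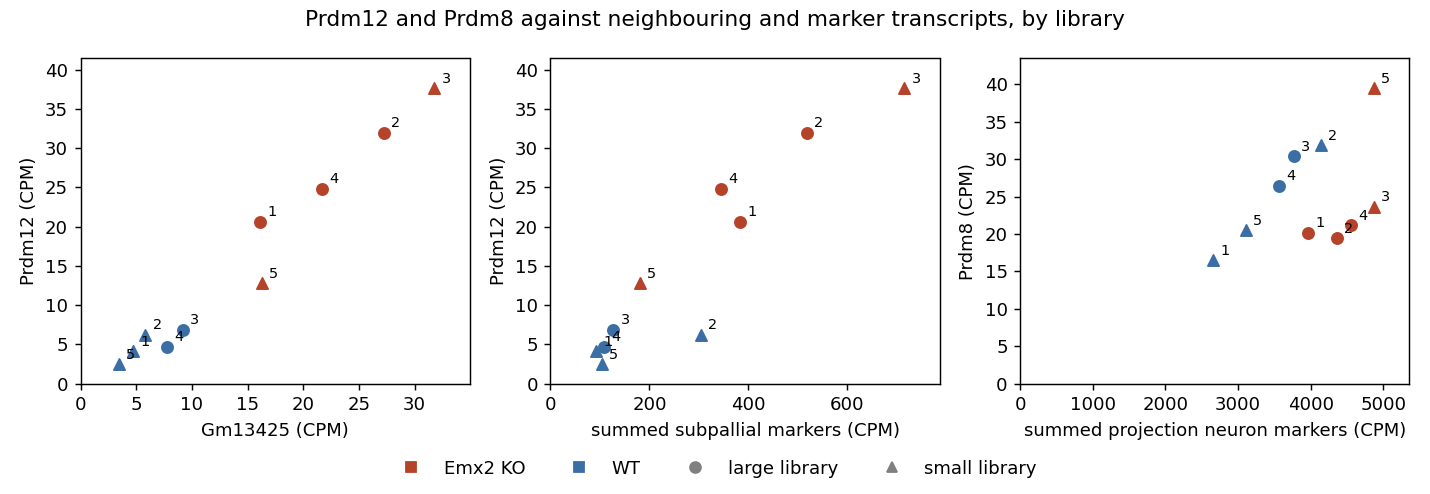
Prdm12 CPM against Gm13425 CPM (left) and against the summed CPM of subpallial markers (middle), and Prdm8 CPM against the summed CPM of projection neuron markers (right). Each point is 1 library with its replicate number, red for Emx2 KO and blue for WT, circles for large and triangles for small libraries. Emx2 KO replicate 5 lies to the left of WT replicate 2 on the subpallial axis (179.9 against 304.6 CPM) but above it in Prdm12, and on the right Emx2 KO replicates 1 to 4 lie below WT replicates 2 to 4 in Prdm8.

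Prdm13 was the rarest of the 4 transcripts and differed almost as much in proportion. Its counts were 56, 67, 12, 29 and 11 in Emx2 KO replicates 1 to 5, against 6, 3, 11, 11 and 2 in WT replicates 1 to 5. That corresponds to 1.84, 2.49, 0.891, 1.19 and 0.761 CPM in Emx2 KO libraries, against 0.4997, 0.218, 0.305, 0.327 and 0.203 CPM in WT libraries. The groups did not overlap, but several WT values rest on few reads. The log2 fold change was 2.22 ± 0.38 (SE), or 4.66-fold higher, at rank 18 from the top. Prdm13 is in that ranking only because its Emx2 KO libraries met the filter, as its WT counts alone were too low. The large Emx2 KO libraries carried more of it than the small ones, and the log2 ratio of means was 2.54 in the large libraries (3 Emx2 KO, 2 WT) and 1.43 in the small ones (2 Emx2 KO, 3 WT). Both small Emx2 KO libraries are of code 14922. Within codes 241022, 14922 and 31022 the ratio was 2.59, 1.39 and 2.54, so size class and code cannot be told apart here. No other annotated gene in the files overlapped Prdm13.

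Genes known to work with PRDM13 in other regions were scarce. Ptf1a, the bHLH factor upstream of it in the dorsal spinal cord, averaged 0 CPM in Emx2 KO and 0.00554 ± 0.0124 CPM in WT libraries. Pax2, a marker of spinal inhibitory neurons, stood at 0.669 ± 0.509 CPM in Emx2 KO and 0.460 ± 0.237 CPM in WT, and neither was tested. Tlx3, which PRDM13 is known to repress in the spinal cord, was at 0.529 ± 0.596 CPM in Emx2 KO and 0.0570 ± 0.0539 CPM in WT, too low for the test. Lhx1, a LIM homeodomain factor found in spinal inhibitory neurons and in Cajal-Retzius cells, was lower at 9.03 ± 3.05 CPM in Emx2 KO and 18.7 ± 6.4 CPM in WT (log2 fold change -1.01 ± 0.26, edgeR adjusted p = 0.0192). Among retinal markers, the other main site of PRDM13, 8 of 10 were too low to test. Of the 2 tested, Mitf, a factor of pigmented epithelium, was lower at 3.56 ± 0.40 CPM in Emx2 KO and 7.89 ± 1.13 CPM in WT (edgeR adjusted p = 0.000107), and Otx1 did not pass. Summed, the retinal list ran from 146.9 to 187 CPM in Emx2 KO and from 146.9 to 182.3 CPM in WT libraries, nearly all of it Otx1, which cortex also expresses. Diencephalic and hypothalamic markers gave 2 higher, 0 lower and 8 not passing of 10 tested (20%), with sums of 109.8 to 168.3 CPM in Emx2 KO and 116.5 to 217.9 CPM in WT. The 2 were Sox14, a factor of inhibitory neurons, at 3.11 ± 2.16 CPM in Emx2 KO and 0.102 ± 0.136 CPM in WT (edgeR adjusted p = 0.000758), and Barhl2, at 23.0 ± 6.9 CPM in Emx2 KO and 10.7 ± 5.6 CPM in WT (edgeR adjusted p = 0.0386). The calls were 1 higher and 0 lower without Emx2 KO replicate 1, 2 or 3 or WT replicate 2, 4 or 5. They were 1 higher and 1 lower without Emx2 KO replicate 4, and 1 higher and 2 lower without WT replicate 3. With 3 other scalings or the title code as a block 1 was lower, beside 2 higher. The part of any such tissue in the Prdm13 difference was not tested.

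Prdm16 was the most abundant of the 4 and the least variable. It stood at 160.1, 199, 203, 179.7 and 190.2 CPM in Emx2 KO replicates 1 to 5, against 112, 103.7, 118, 121 and 85.4 CPM in WT replicates 1 to 5. The lowest Emx2 KO library, replicate 1, was above the highest WT library, replicate 4. The log2 fold change was 0.78 ± 0.09 (SE), a 1.72-fold higher level at rank 485, with a coefficient of variation of 9.26% in Emx2 KO and 13.1% in WT libraries. The log2 ratio of means was 0.59 over the large libraries, 0.97 over the small ones, and 0.74, 0.72 and 1.07 within codes 241022, 14922 and 31022. B230104I21Rik, which shares 109 exon bases with Prdm16 on the other strand (1.17% of Prdm16), was at 0.584 ± 0.111 CPM in Emx2 KO and 0.469 ± 0.186 CPM in WT, far below Prdm16 in both.

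Radial glia markers, the cells in which Prdm16 is best known in cortex, were mostly higher as well. Of 14 tested 11 were higher in Emx2 KO libraries, 1 lower and 2 did not pass (85.7% passed, against 22.2% of all genes), with a median log2 fold change of 0.41. Notch1, the receptor that holds progenitors undifferentiated, stood at 369 ± 11.9 CPM in Emx2 KO and 241 ± 5.8 CPM in WT (log2 fold change 0.61 ± 0.03, edgeR adjusted p = 5.66e-07). The POU factor gene Pou3f2 reached 231 ± 21.4 CPM in Emx2 KO and 113 ± 8.5 CPM in WT (1.04 ± 0.07, edgeR adjusted p = 2.06e-06). Vim, encoding the intermediate filament vimentin, had 812 ± 74.7 CPM in Emx2 KO and 815 ± 44.9 CPM in WT and did not pass. Prom1, which encodes an apical membrane protein of progenitors, was the 1 that was lower, at 68.6 ± 6.3 CPM in Emx2 KO and 81.6 ± 4.1 CPM in WT (edgeR adjusted p = 0.0106). Summed, the list ran from 4517 to 5163 CPM in Emx2 KO and from 3795 to 3895 CPM in WT libraries, without overlap. Choroid plexus and cortical hem markers, from the dorsal midline tissue beside the cortex, moved the other way in the same libraries. Of 15 tested 11 were lower in Emx2 KO, 0 higher and 4 did not pass, with a median log2 fold change of -1.69 and sums of 161.8 to 276 CPM in Emx2 KO and 553.9 to 697.2 CPM in WT. None of the 15 was at 0 throughout, and Ttr, encoding the carrier transthyretin, had 2.55 ± 1.41 CPM in Emx2 KO and 116 ± 17.9 CPM in WT (edgeR adjusted p = 2.48e-06). Within genotypes Prdm16 did not follow the radial glia sum (r = -0.109 over 10 libraries), though r was 0.625 once size class was removed. With the choroid plexus and hem sum its r was -0.57, and -0.408 within size class. Prdm13 had r = 0.789 with the radial glia sum, and 0.521 within size class. The r of Prdm16 farthest from 0 with any list was -0.851 (-0.771 within size class), with the summed endothelial, mesenchymal and blood markers. Most of that sum was the globin gene Hbb-y, at 2904 ± 1305 CPM in Emx2 KO and 2534 ± 853 CPM in WT. That list had 0 of 12 calls in edgeR (3 at an unadjusted p under 0.05, 1 call in DESeq2, and 4 lower in edgeR without Emx2 KO replicate 1), and its sums overlapped at 2285 to 6530 CPM in Emx2 KO and 2362 to 4937 CPM in WT. The part of progenitor, midline, vascular or blood content in the Prdm12, Prdm13 and Prdm16 differences was not tested.

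Prdm8 showed no difference between the genotypes beyond its spread. It stood at 20.2, 19.4, 23.7, 21.2 and 39.5 CPM in Emx2 KO replicates 1 to 5, against 16.5, 31.9, 30.4, 26.5 and 20.6 CPM in WT replicates 1 to 5. The ranges overlapped, and Emx2 KO replicate 5 was the highest of all 10 libraries. Means were 24.8 ± 8.4 CPM in Emx2 KO and 25.2 ± 6.5 CPM in WT (SD, n = 5 each), and the log2 fold change was -0.04 ± 0.23 (SE). The sign was not stable. In the large libraries the 3 Emx2 KO values all lay below the 2 WT values (log2 ratio of means -0.49), and in the small ones the ratio was 0.46 with overlap. The ratio in the small libraries rests on Emx2 KO replicate 5, and without that library the log2 fold change over all sizes was -0.27. It was 0.00 to 0.05 without Emx2 KO replicate 1, 2 or 4 or WT replicate 2 or 3. A730035I17Rik, annotated as antisense to Prdm8, shares 1411 exon bases with it, 29.1% of Prdm8 and 59.0% of the antisense gene. It was at 2.55 ± 0.46 CPM in Emx2 KO and 2.94 ± 1.07 CPM in WT (log2 fold change -0.21 ± 0.23, edgeR adjusted p = 0.588).

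Projection neuron markers gave a mixed picture, with 5 higher, 3 lower and 7 not passing of 15 tested. The counts were 4 higher and 1 lower without WT replicate 4, and 3 higher and 2 lower without WT replicate 5. Bhlhe22, the partner of PRDM8, stood at 74.3 ± 25.7 CPM in Emx2 KO and 93.9 ± 18.7 CPM in WT (log2 fold change -0.35 ± 0.23, edgeR adjusted p = 0.33). Cdh11, a cadherin gene known to be repressed by the 2 proteins together, had 71.1 ± 7.9 CPM in Emx2 KO and 74.3 ± 1.6 CPM in WT (edgeR adjusted p = 0.542). Tbr1, a marker of early-born deep-layer neurons, was higher at 431 ± 37.3 CPM in Emx2 KO and 270 ± 21.5 CPM in WT (edgeR adjusted p = 3.55e-05). The subcerebral neuron factor gene Fezf2 was lower at 82.9 ± 7.4 CPM in Emx2 KO and 134 ± 7.5 CPM in WT (edgeR adjusted p = 1.7e-05). Prdm8 varied within genotypes with the summed neuronal list (r = 0.823, 10 libraries) and against the radial glia sum (r = -0.768). Against the diencephalic sum r was -0.897. Neurod6, a bHLH factor gene of young projection neurons, was also highest among Emx2 KO libraries in replicate 5, at 365 CPM, where Hes5, a Notch target of progenitors, was lowest at 67.4 CPM. The part of neuron content in the Prdm8 values was not tested.

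Whether the genotype difference was of the same size in large and small libraries was tested as an interaction in all 10, a question that played no part in choosing the genes. None of the 4 passed (0 of 4 in edgeR, adjusted p from 0.489 to 0.89), and across all genes 7 did, or 0.0385%. At an unadjusted p under 0.05 there were 2 of the 4, against 1761 of all 18163 genes. These 2 were Prdm8 (large minus small -0.94 ± 0.39 on the log2 scale, edgeR adjusted p = 0.499) and Prdm16 (-0.38 ± 0.16, edgeR adjusted p = 0.489). For Prdm12 the interaction was -0.37 ± 0.71, with a standard error that leaves room for a sizable difference in either direction. For Prdm13 it was 1.12 ± 0.70, which leaves room both for little difference and for a large one. In codes 241022 and 31022 the Emx2 KO libraries were large and the WT libraries small, and in 14922 the reverse held. The interaction is therefore the same contrast as a difference between 14922 and the other codes that both genotypes share. The test cannot tell the 2 apart. These values thus do not show whether the genotype difference changed with library size.

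Per kilobase of exon, the order of the 4 genes differed between genotypes. In Emx2 KO libraries the mean level was 20 RPKM, CPM divided by exon length in kilobases, for Prdm16, 10.3 for Prdm12, 5.11 for Prdm8 and 0.335 for Prdm13. In WT libraries it was 11.6 RPKM for Prdm16, 5.18 for Prdm8, 1.98 for Prdm12 and 0.0725 for Prdm13. Prdm12 and Prdm8 thus changed places, but in Emx2 KO their ranges met, 5.18 to 15.2 for Prdm12 and 4.005 to 8.14 for Prdm8. In WT they stayed apart, at 0.988 to 2.79 for Prdm12 and 3.40 to 6.57 for Prdm8. Prdm16 lay above and Prdm13 below the other 3 in every library of both genotypes.

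**Figure D3:**
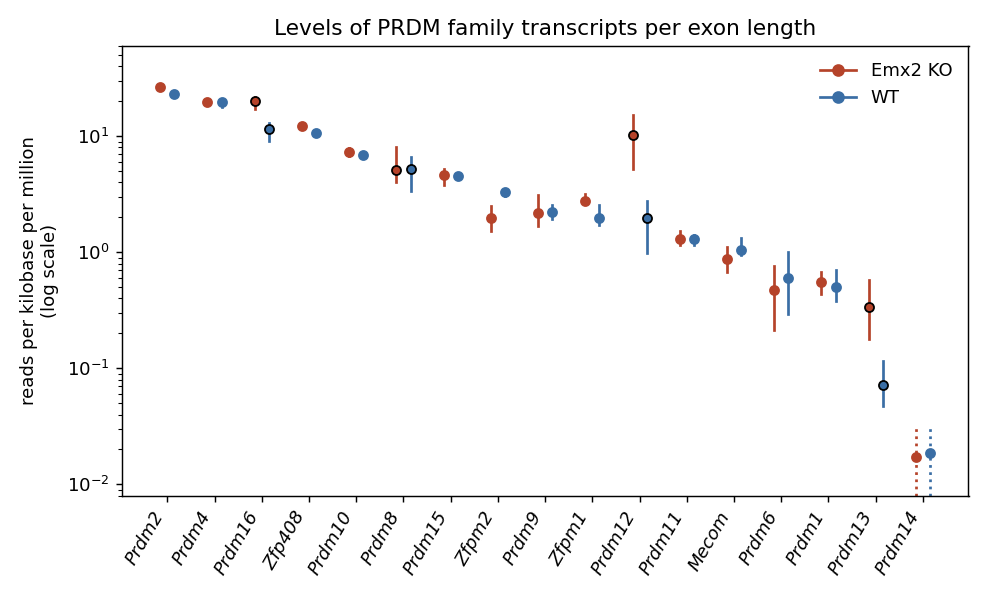
Mean level per exon length of PRDM family genes (RPKM, log axis), Emx2 KO left and WT right within each gene, with lines for the lowest to highest library (n = 5 each, dotted where a library was at 0) and black rims on the 4 genes described. Prdm12 lies above Prdm8 in Emx2 KO means (10.3 and 5.11) and lies below it in WT means (1.98 and 5.18).

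Most other genes of the family did not pass the test. Of 14 other PRDM genes and relatives listed by name, 13 were tested, and 3 were higher, 1 lower and 9 did not pass, or 30.8% passing against 22.2% of all genes. Prdm14, a regulator of pluripotency and germ cells, was not tested, with 6 reads over the Emx2 KO libraries and 5 over the WT libraries. Prdm2, which encodes a broadly expressed histone methyltransferase, stood at 187 to 204 CPM in Emx2 KO and 166 to 178 CPM in WT libraries (log2 fold change 0.19 ± 0.04, edgeR adjusted p = 0.00202). Zfp408 was at 45.9 to 52.4 CPM in Emx2 KO and 41.8 to 45.3 CPM in WT (0.18 ± 0.05, edgeR adjusted p = 0.0206), a call lost without Emx2 KO replicate 2 and without WT replicate 3.

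The 2 FOG genes, relatives of the family whose proteins act as cofactors of GATA factors, moved in opposite directions. Zfpm1 was higher at 9.76 ± 0.80 CPM in Emx2 KO and 6.94 ± 1.15 CPM in WT (log2 fold change 0.50 ± 0.12, edgeR adjusted p = 0.00916). Zfpm2 was lower, with 16.02, 18.4, 21.6, 14.7 and 23.8 CPM in Emx2 KO replicates 1 to 5, against 29.2, 32.7, 30.5, 33.0 and 31.4 CPM in WT replicates 1 to 5 (log2 fold change -0.74 ± 0.12, edgeR adjusted p = 0.000805). Mecom, the closest relative of Prdm16, had 10.9 ± 2.1 CPM in Emx2 KO and 12.9 ± 2.1 CPM in WT (-0.23 ± 0.14, edgeR adjusted p = 0.285). The difference between Mecom and Prdm16 was not tested. Others that did not pass were Prdm1, Prdm4, Prdm6, Prdm9, Prdm10, Prdm11 and Prdm15, with log2 fold changes of -0.29 (Prdm6) to 0.14 (Prdm1).

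**Figure D4:**
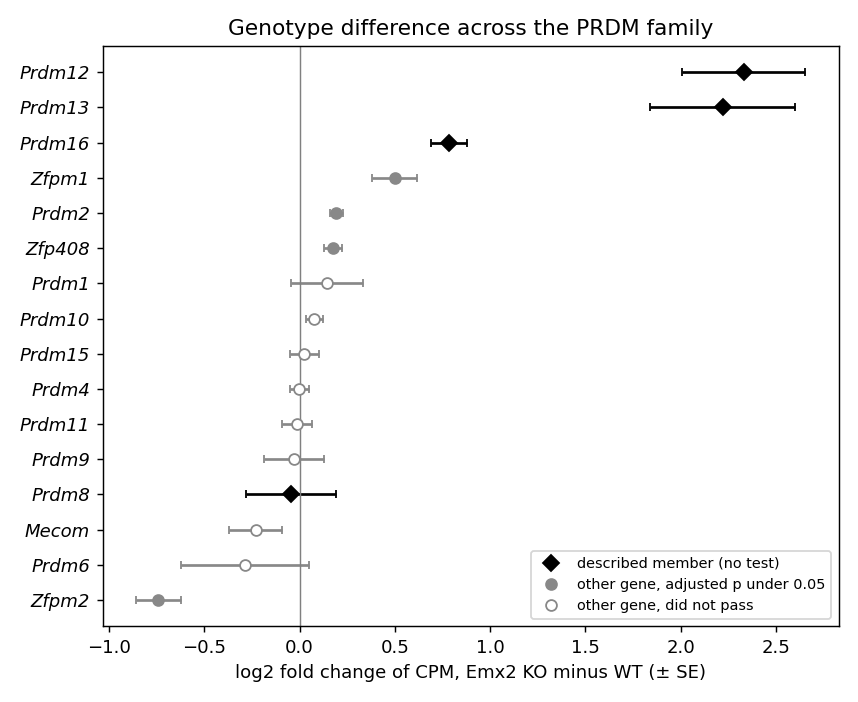
Log2 fold change of CPM, Emx2 KO minus WT, with its SE, for PRDM family genes with enough reads. Black diamonds are the 4 genes described, with no test, filled grey circles are other genes with an edgeR adjusted p under 0.05 and open circles are those that did not pass. Prdm12 (2.33) and Prdm13 (2.22) stand far to the right and Zfpm2 (-0.74) to the left.

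Partner genes of the family were higher more often than lower, by small amounts. Of 16 cofactor genes 6 were higher, 1 lower and 9 did not pass (43.8% passing, against 22.2% of all genes). Ehmt2, the histone methyltransferase recruited by PRDM12, had 334 ± 6.4 CPM in Emx2 KO and 267 ± 15.01 CPM in WT (log2 fold change 0.33 ± 0.04, edgeR adjusted p = 0.000187). The corepressor gene Ctbp1, whose product binds PRDM16, had 336 ± 7.7 CPM in Emx2 KO and 266 ± 18.8 CPM in WT (0.34 ± 0.05, edgeR adjusted p = 0.000358). Ncor1, another corepressor, was the 1 lower, at 283 ± 19.6 CPM in Emx2 KO and 315 ± 9.3 CPM in WT (edgeR adjusted p = 0.0406). The list had no lower call without Emx2 KO replicate 2, 3 or 4 or WT replicate 2, 3, 4 or 5. It also had none with size class as a block or without the filter. In the small libraries alone 0 of the 16 genes passed in either direction. The deacetylase genes Hdac2 and Hdac3 did not pass, with log2 fold changes of -0.01 ± 0.05 and 0.01 ± 0.04.

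Of 15 genes linked to the 4 factors in other work, 10 were tested, and 2 were higher, 2 lower and 6 did not pass. Without the filter all 15 were tested, and 5 were higher and 1 lower. Neurog1, a proneural bHLH gene, was higher at 55.0 ± 5.2 CPM in Emx2 KO and 27.9 ± 3.4 CPM in WT (edgeR adjusted p = 2.2e-05). Wnt7b, a WNT ligand gene, was lower together with Lhx1, at 76.5 ± 11.8 CPM in Emx2 KO and 153 ± 14.99 CPM in WT (log2 fold change -0.99 ± 0.11, edgeR adjusted p = 1e-04). Dbx1, which PRDM12 is known to repress in the spinal cord, stood at 2.83 ± 1.54 CPM in Emx2 KO and 2.09 ± 1.17 CPM in WT (edgeR adjusted p = 0.414). En1, whose neurons need PRDM12 there, was too low to test, at 0.278 ± 0.332 CPM in Emx2 KO and 0.0145 ± 0.0325 CPM in WT.

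The genes whose levels varied most like each PRDM gene within genotypes were found among protein-coding genes of at least 5 CPM on average, by Pearson's r of deviations from the genotype means over the 10 libraries. For Prdm12 these were Cep19 (r = 0.974), Parp8 (0.944), Vcan (0.934) and Ntn1 (0.921). Ntn1, encoding the guidance cue netrin-1, averaged 38.5 CPM in Emx2 KO and 11.4 CPM in WT. For Prdm8 they were Fam49a (r = 0.989), Znrf2 (0.972), Syt4 (0.969), a synaptotagmin gene, and Kcnb2 (0.966), a potassium channel gene. Prdm13 was nearest to Gpi1 (r = 0.958), Stk11ip (0.946), Mov10 (0.944) and Zfp521 (0.938), and Prdm16 to Gtpbp2 (r = 0.954), Tube1 (0.928) and Acox3 (0.921). These are among the highest values of 11180 or 11181 candidates over only 10 libraries that share depth and scaling. With size class also removed, Stk11ip ranked 43 and Mov10 55 for Prdm13, and Gtpbp2 25 and Tube1 47 for Prdm16. Fam49a still ranked 1 for Prdm8, Cep19 3 for Prdm12 and Gpi1 3 for Prdm13. By Spearman's rho Zfp521 ranked 100 for Prdm13. The 4 PRDM genes did not vary as a unit, with r from -0.714 (Prdm8 and Prdm13) to 0.596 (Prdm12 and Prdm16).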

How the data were processed

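The deposited values are raw read counts per Ensembl gene, not normalized, 1 file per library, made by the authors with bcl2fastq 2.20, STAR 2.7.8a and featureCounts 1.6.3-p1, per the submitters' processing notes. These notes name the builds GRCm39 and rn6, and the build used for counting, the strand setting and the annotation release are not given in the sources used here. Total RNA was isolated with a NucleoSpin kit, per the labels' protocols.

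Of 56748 identifiers 52073 matched a symbol. Exon lengths, overlaps and promoter windows came from annotation of GRCm38, and the promoters from RefSeq (GRCm38.p6), where all 4 genes matched. After filterByExpr (minimum count 10) and TMM scaling, all 18163 genes were tested in edgeR 4.0.16 under R 4.3.3 by quasi-likelihood with a robust spread, two-sided, with Benjamini-Hochberg adjustment and a threshold of 0.05. CPM used the TMM-scaled totals, and log2 CPM a prior count of 0.5. Pairs of libraries within a genotype all differed by more than sampling noise. Intervals cover counting and library spread only.

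The PRDM genes, the gene lists and the tests were chosen with earlier results of these data known. Genes were named by a rule: Emx2, the 4 PRDM genes, every other PRDM gene, up to 5 passing cofactor or linked genes with the smallest p and 2 with the largest, up to 4 passing markers per list with the smallest p and 1 that did not pass with the largest CPM, and the 4 genes most like each PRDM gene. Some genes this rule gives are not reported here. Bhlhe22, Ncor1, En1, Ptf1a, Pax2, Tlx3 and Prom1 were named outside it, after their values were seen, and overlapping antisense genes were taken from the annotation. Alternatives were other scalings, no filter, DESeq2 1.42.0, limma-voom (limma 3.58.1), size class or title code as a block, each size class alone and each library left out. A fit without the robust spread was added after seeing the data. The procedure was tested on simulated data.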

Additional observations from a re-analysis of the deposited data

Results flagged for a closer look

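In each group of 5 libraries, a library was singled out where its distance from the nearest other, divided by the range of the group, exceeded 0.71 (Dixon's 95% critical value). This held in 14 of 156 groups. Chance flags about 1 in 20 independent groups, but these share libraries, and Fam49a, Znrf2 and Zfp521 were named because they vary like a PRDM gene, so the count is not set against that rate. Prdm8 was the 1 PRDM gene of the 4 among them, with Emx2 KO replicate 5 at 39.5 CPM and the next at 23.7 CPM (ratio 0.789). The same library was highest for Neurod6 (0.767), Fam49a (0.75) and Znrf2 (0.748), and lowest for Hes5 (0.881) and Gsx2 (0.814). WT replicate 2 was highest for the ventral genes Sp9 (0.841) and Gad2 (0.749) and for Zfpm1 (0.745). WT replicate 1 was highest for Dbx1 (0.852), Mecom (0.801), Otx2 (0.77) and Zfp521 (0.764). Emx2 KO replicate 3 was lowest for Otx1 (0.803).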

How the results depend on the processing

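Over 21 alternatives the log2 fold change of Prdm12 ran from 2.15 to 2.52, of Prdm13 from 1.39 to 2.53 and of Prdm16 from 0.59 to 0.97, and that of Prdm8 from -0.49 (large libraries) to 0.46 (small libraries). With 1 library left out the ranges were 2.16 to 2.50, 1.93 to 2.38 and 0.72 to 0.83, with -0.27 to 0.05 for Prdm8. Over all genes 4039 passed, 3072 to 3979 with 1 library left out, and 626 in the small libraries alone. Of the other PRDM genes 4 passed, 3 to 4 with 1 library left out, 2 in the large libraries alone and 0 in the small ones alone (edgeR, with 4 at an unadjusted p under 0.05). Zfp408 lost its call in 7 of 21 alternatives (edgeR or other adjusted p from 0.0126 to 0.272), Prdm2 in both single size classes, and Zfpm1 and Zfpm2 in the small libraries. The cause was not tested. Calls were 2345 higher and 1694 lower, against 1899 and 2245 with upper-quartile scaling and 1786 and 2464 with total counts alone, which kept the directions of Prdm12, Prdm13 and Prdm16. Of the marker lists, subpallium had 7 calls, 11 without WT replicate 2 and 0 in the small libraries, where radial glia had 4, against 12 in all libraries. With title code as a block 4023 genes passed. Few reads limit Prdm13, with 33 over the WT libraries.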
